A study of Mus musculus with 9 samples.

Results

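The effect of ifetroban on the diseased left ventricle was described from 5 of the 9 RNA libraries of the series, the 3 from mice lacking delta-sarcoglycan (labelled dSG KO, here KO) that were given ifetroban and the 2 from KO mice given vehicle. The libraries were chosen by their titles, and each of the 5 was used. The other 4, 2 from wild-type (WT) mice given vehicle and 2 from WT mice given ifetroban, entered the shared model and give the level without the mutation and the drug effect without disease. The age, sex, strain background, dose and length of treatment were not given in the sources used here, nor was the mutant allele. Nothing in the labels says whether each library came from a separate animal. The p-values here set the difference between groups against the spread among libraries within groups, and some of that spread may be technical. If libraries shared an animal, the p-values would not hold for mice in general.

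Delta-sarcoglycan is a part of the dystrophin-glycoprotein complex, which links the cytoskeleton of the muscle cell through its membrane to the surrounding matrix. Its loss leaves cardiomyocytes open to membrane damage and leads to a cardiomyopathy with cell death and scarring. Ifetroban blocks the receptor for thromboxane, which Tbxa2r encodes. This receptor couples through G proteins to calcium release and is activated by thromboxane, by prostaglandin endoperoxides and by isoprostanes formed under oxidative stress. The comparison asks how the transcripts of the knockout ventricle differ between drug and vehicle.

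Sgcd, which encodes delta-sarcoglycan, was at 7.49 and 12.1 CPM in the KO vehicle libraries and at 9.77, 16.4 and 18.5 CPM in the KO ifetroban libraries. CPM is the count of a gene scaled to a common library size. It compares libraries, not genes, because it takes no account of gene length. The WT libraries had 11.1 and 28.9 CPM (vehicle) and 33.1 and 31.2 CPM (ifetroban), so the library labelled WT vehicle replicate 1 lay within the KO range. Of genes described below, Thbs4 and Nppa were at 6.26 and 230 CPM in that library, under all KO libraries. Acta1, at 1361 CPM, was within the KO range there. Markers of cardiomyocytes summed to between 77888 and 90327 CPM in the KO libraries, and all 18 were tested.

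The 5 KO libraries were not alike. They held 21299748 to 31394548 reads in genes. The first principal component, with 47.5% of the variance, set 2 KO libraries apart, vehicle replicate 1 (84.4) and ifetroban replicate 1 (34.2), while the other 7 libraries lay between -38.2 and 2.02. Relative to short transcripts, long ones were low in both libraries of the vehicle group and in the first of the ifetroban group, and high in ifetroban replicates 2 and 3. In WT they were low in vehicle replicate 1 and high in vehicle replicate 2 and both ifetroban libraries. The trend was therefore not balanced between drug and vehicle in WT either. The part of these differences in the results was not tested. Values without KO vehicle replicate 1, and values from KO ifetroban replicate 1 as the only drug library, are given with many of the results they moved. The second of these settings compares the 3 KO libraries that were low in long transcripts. It still holds the outlying vehicle replicate 1, and its drug group is 1 library. In whole tissue, fewer cells of a type and less RNA per cell cannot be told apart.

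No single gene passed the test between drug and vehicle in the knockout. Of 15261 genes tested with edgeR's quasi-likelihood test, 0 were higher (0%) and 0 were lower (0%) at a Benjamini-Hochberg adjusted p under 0.05, and the lowest adjusted p was 0.688. Unadjusted p values under 0.05 went to 396 genes that were higher under ifetroban (2.59%) and to 370 that were lower (2.42%), where 763 would have p values that low if p were uniform. The 3 drug libraries lay wholly above the 2 vehicle libraries for 1279 genes (8.38%) and wholly below them for 1157 (7.58%). The median log2 fold change was -0.02, and its median size was 0.24. DESeq2, run as the alternative, called 3 genes, with Ucp3 and Pfkfb1 higher and Thbs4 lower. Other settings gave more calls in edgeR. Without KO vehicle replicate 2, which leaves the outlying replicate 1 as the only vehicle library and assumes that it varies like the other groups, 145 genes were called higher and 304 lower. Without the filter on low counts 168 were called higher and 260 lower, and 382 of these 428 were also tested with the filter. The sections that follow therefore give levels and differences, and the genes named for KO in the following paragraphs had an edgeR adjusted p of 0.688 unless another is printed.

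**Figure D1:**
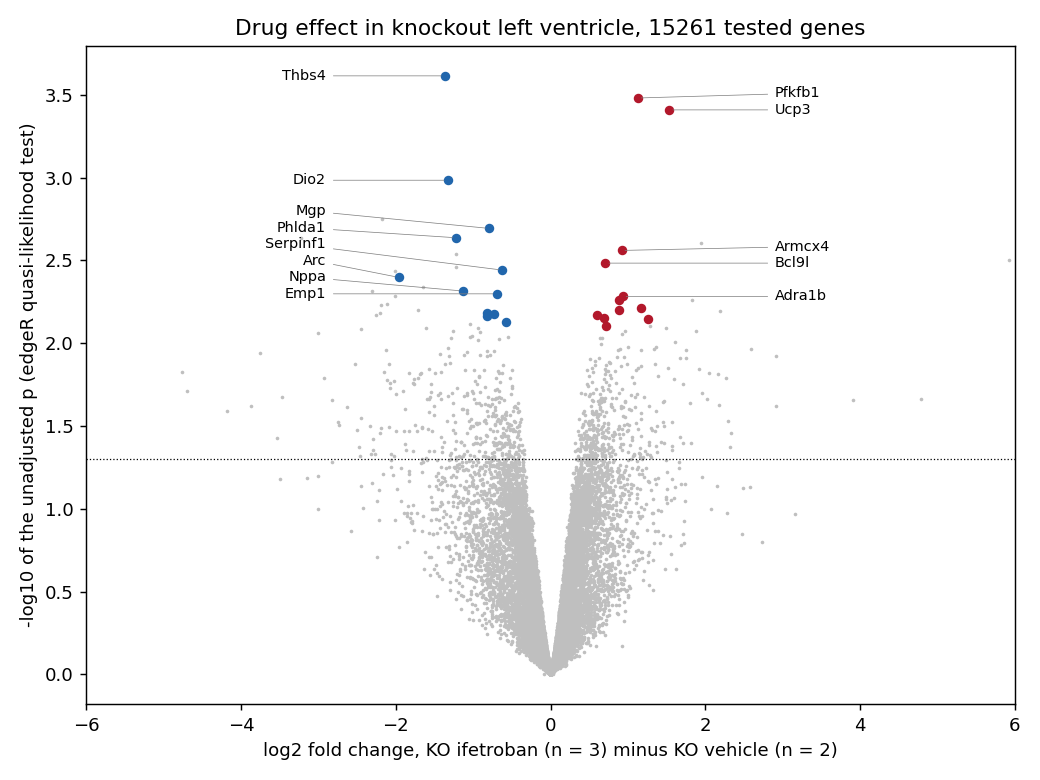
Each point is 1 of 15261 tested genes, with the log2 fold change of KO ifetroban over KO vehicle on the x axis and -log10 of the unadjusted p on the y axis; the dotted line marks a p of 0.05. Coloured points are the 24 genes with the smallest p whose libraries did not overlap, 12 higher (red) and 12 lower (blue); Thbs4, Pfkfb1 and Ucp3 lie at the top.

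The 3 genes with the smallest p stood apart from the rest of the plot. Thbs4 (ENSMUSG00000021702; chromosome 13, 92751590 to 92794818, minus strand, GRCm38) encodes thrombospondin-4, a matricellular glycoprotein of stressed heart and muscle. Its level was 61.6 and 33.8 CPM in KO vehicle and 20.7, 18.9 and 15.9 CPM in KO ifetroban, a log2 difference of -1.36 ± 0.242 (SE; DESeq2 adjusted p = 0.00419). All 3 drug libraries lay below both vehicle libraries and above all 4 WT libraries, which had 5.14 to 8.48 CPM. Ucp3 (ENSMUSG00000032942; chromosome 7, 100472990 to 100486432, plus strand) encodes a mitochondrial carrier of muscle that follows fatty acid supply. It was at 7.72 and 16.0 CPM with vehicle and at 32.8, 35.1 and 35.8 CPM with ifetroban, a log2 difference of 1.54 ± 0.29 (DESeq2 adjusted p = 0.00297). Its WT levels were 25.2 to 46.5 CPM, so the drug libraries lay inside the WT range and the vehicle libraries below it. Pfkfb1 (ENSMUSG00000025271; chromosome X, 150588229 to 150643878, plus strand) encodes the enzyme that makes and removes fructose-2,6-bisphosphate, an activator of glycolysis. Its levels were 3.86 and 4.65 CPM against 9.49, 9.26 and 9.15 CPM, a log2 difference of 1.13 ± 0.208 (DESeq2 adjusted p = 0.0437), beside 9.43 to 12.6 CPM in WT. With KO ifetroban replicate 1 as the only drug library the log2 differences were -1.20 for Thbs4, 1.46 for Ucp3 and 1.16 for Pfkfb1. Without KO vehicle replicate 1 they were -0.87, 1.11 and 1.0001.

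The promoters of Thbs4 and Ucp3, of these 3 genes the ones with a single RefSeq start, are shown to give the sequence context of the differences. They are the 250 bases before the start site in RefSeq on GRCm38.p6 (Thbs4 chr13:92794819-92795068, minus strand; Ucp3 chr7:100472741-100472990, plus strand), 5′ to 3′ on the gene's own strand. Capitals mark matches, on either strand, to any of 5 short motifs that are named after the sequences.
Thbs4: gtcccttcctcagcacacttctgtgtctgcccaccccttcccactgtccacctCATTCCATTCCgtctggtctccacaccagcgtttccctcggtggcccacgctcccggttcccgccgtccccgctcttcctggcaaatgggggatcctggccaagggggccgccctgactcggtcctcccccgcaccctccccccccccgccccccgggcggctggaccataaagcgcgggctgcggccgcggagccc
Ucp3: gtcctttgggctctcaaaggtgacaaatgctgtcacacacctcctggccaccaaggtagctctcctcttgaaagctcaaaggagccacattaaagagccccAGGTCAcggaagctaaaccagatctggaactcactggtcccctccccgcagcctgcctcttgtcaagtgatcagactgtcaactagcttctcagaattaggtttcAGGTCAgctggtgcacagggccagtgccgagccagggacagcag
Thbs4 held 2 overlapping copies of CATTCC, the motif of TEAD factors, which start 197 and 192 bases before the start site, and 12.6% of 32851 promoter windows of this length hold at least 1. Ucp3 held 2 copies of AGGTCA, an element that PPAR and other nuclear receptors bind as part of a repeat, at 149 and 44 bases before the start, and 14% of windows hold at least 1. The AP-1 motif TGACTCA had no match in either window and is held by 4.46% of all windows. For the GATA motif AGATAA, also without a match, the share is 9.99%. The same holds for the TATA box, TATAAA, with a share of 12.4%. A match is a stretch of letters and does not show that a factor was bound in these hearts.

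Transcripts of matrix assembly and of activated fibroblasts were mostly lower in the drug libraries. The main fibrillar collagens overlapped between the groups. Myofibroblasts are fibroblasts that contract and lay down scar, and all 13 of their tested markers had negative log2 differences (median -0.91; over all genes -0.02). Lower without overlap were 3 of the 13 (23.1%, beside 7.58% of all genes), and 0 passed the test. The 21 tested matricellular genes, whose proteins signal from the matrix without building it, had a median of -0.59. Of them 16 were negative and 4 (19%, beside 7.58% of all genes) were lower without overlap. Of 51 tested genes of the extracellular matrix 41 were negative (median -0.22), and 10 (19.6%) were lower without overlap while 0 were higher without overlap. Without KO vehicle replicate 1 the medians were -0.47 for the myofibroblast markers, -0.27 for the matricellular genes and -0.14 for the matrix genes. With KO ifetroban replicate 1 as the only drug library they were -0.66, -0.65 and -0.40. Markers of resting and all fibroblasts summed to 2753 and 3438 CPM with vehicle and to 2463, 2809 and 3438 CPM with ifetroban. These sums overlapped. Gene by gene, 13 of the 17 fibroblast markers were negative (median -0.21). Lower without overlap were 3 (17.6%, beside 7.58% of all genes), and 0 were higher without overlap. Leaving out the first vehicle library gave a median of -0.28, and leaving out the second gave -0.04. With KO ifetroban replicate 1 as the only drug library it was -0.30.

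Among the matricellular genes after Thbs4, Mgp, which encodes an inhibitor of calcification in matrix, was at 222 and 206 CPM with vehicle and at 124, 103 and 143 CPM with ifetroban (log2 difference -0.79 ± 0.19). WT libraries had 77.8 to 109 CPM, so the lowest drug library fell within the WT range. Postn, which encodes periostin of the healing scar, was at 138 and 295 CPM against 84.3, 111 and 149 CPM, with 1 drug library above the lower vehicle library. Cthrc1, a marker of scar-forming fibroblasts, was at 1.72 and 3.65 CPM against 1.496, 1.41 and 1.05 CPM. These groups did not overlap, but the gap between the nearest pair was small. Sparc, whose protein binds collagen, was at 694 and 575 CPM against 535, 406 and 413 CPM; it was chosen after its values were seen. The log2 differences of Postn and Cthrc1 were -0.92 and -1.03 with all 5 libraries, and -0.25 and -0.37 without KO vehicle replicate 2.

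Ltbp2, which encodes a fibrillin-binding protein of elastic fibres, was at 54.1 and 45.2 CPM with vehicle and at 21.0, 17.7 and 35.3 CPM with ifetroban (log2 difference -1.01 ± 0.31), against 2.87 to 8.71 CPM in WT. Mfap5, for a microfibril protein, was at 88.8 and 48.7 CPM against 35.6, 28.1 and 36.3 CPM. Bgn, for the proteoglycan biglycan, was at 416 and 506 CPM against 285, 284 and 363 CPM (-0.57 ± 0.169). Each of the 3 was lower in every drug library than in either vehicle library. Col8a1, a short-chain collagen, was at 88.6 and 77.3 CPM against 55.6, 46.1 and 59.9 CPM. The log2 difference of Mfap5 was -1.05, and -0.55 without KO vehicle replicate 1. The levels of the fibrillar collagens overlapped. Col1a1 was at 265 and 296 CPM with vehicle and at 219, 299 and 296 CPM with ifetroban (-0.05 ± 0.197, adjusted p = 0.939). Col3a1 was at 454 and 557 CPM against 397, 526 and 564 CPM (-0.03 ± 0.248, adjusted p = 0.973). With KO ifetroban replicate 1 as the only drug library the log2 differences were -0.36 for Col1a1 and -0.35 for Col3a1, near the -0.40 of the whole matrix list in that comparison. Both collagens were higher in all 5 KO libraries than in any WT library, where Col1a1 was at 113 to 171 and Col3a1 at 159 to 288 CPM. Secreted and contractile genes of stromal cells among the 12 lower genes were Serpinf1, an inhibitor of vessel growth, at 45.2 and 51.8 CPM against 32.0, 26.7 and 35.8 CPM (-0.62 ± 0.164), and Igfbp7, at 418 and 292 CPM against 240, 161 and 205 CPM. Myl9, a smooth muscle myosin light chain, was at 51.7 and 32.0 CPM against 29.3, 22.9 and 23.6 CPM.

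Several well-known scar genes differed through 1 library. Ccn2, a TGF-beta target that promotes fibrosis, was at 842 CPM in KO vehicle replicate 1 and at 139 CPM in replicate 2, beside 202, 161 and 144 CPM with ifetroban. Its log2 difference was -1.54 ± 0.539 with both vehicle libraries and 0.28 without replicate 1. Timp1, a protease inhibitor, was at 337 and 10.1 CPM against 96.8, 31.9 and 21.2 CPM (-1.80 ± 1.06, and 2.30 without replicate 1). Lox, which encodes the enzyme that crosslinks collagen, was at 62.3 and 17.9 CPM against 22.1, 21.1 and 18.2 CPM and was chosen after its values were seen. For these genes the second vehicle library lay at or under the drug libraries. Spp1, for osteopontin of macrophages, was at 36.9 and 2.18 CPM against 56.8, 19.4 and 5.78 CPM (0.48 ± 0.9999, adjusted p = 0.882). Meox1, a transcription factor of activated fibroblasts, was at 83.1 and 23.7 CPM against 26.6, 22.0 and 15.2 CPM (-1.33, and -0.16 without replicate 1).

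Of the TGF-beta and BMP genes, 24 of 33 tested were negative (median -0.30), 4 were lower without overlap (12.1%, beside 7.58% of all genes), and 0 passed the test. Tgfb1, the ligand, was at 72.0 and 38.0 CPM with vehicle and at 41.4, 35.9 and 31.8 CPM with ifetroban, groups that overlapped. Tgif1, a repressor of the pathway, was at 9.96 and 6.39 CPM against 5.19, 3.77 and 4.07 CPM (-0.91 ± 0.278). Fstl1, a secreted glycoprotein related to follistatin, was at 217 and 239 CPM against 157, 149 and 179 CPM (-0.49 ± 0.175). Gdf15, a stress-induced member of the ligand family, was at 69.6 CPM in KO vehicle replicate 1, 5.12 CPM in replicate 2 and 4.21, 5.52 and 2.17 CPM with ifetroban. Without replicate 1 the median of the 33 genes was 0.15, and the log2 differences were -0.07 for Tgfb1, -0.56 for Tgif1 and -0.36 for Gdf15.

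**Figure D2:**
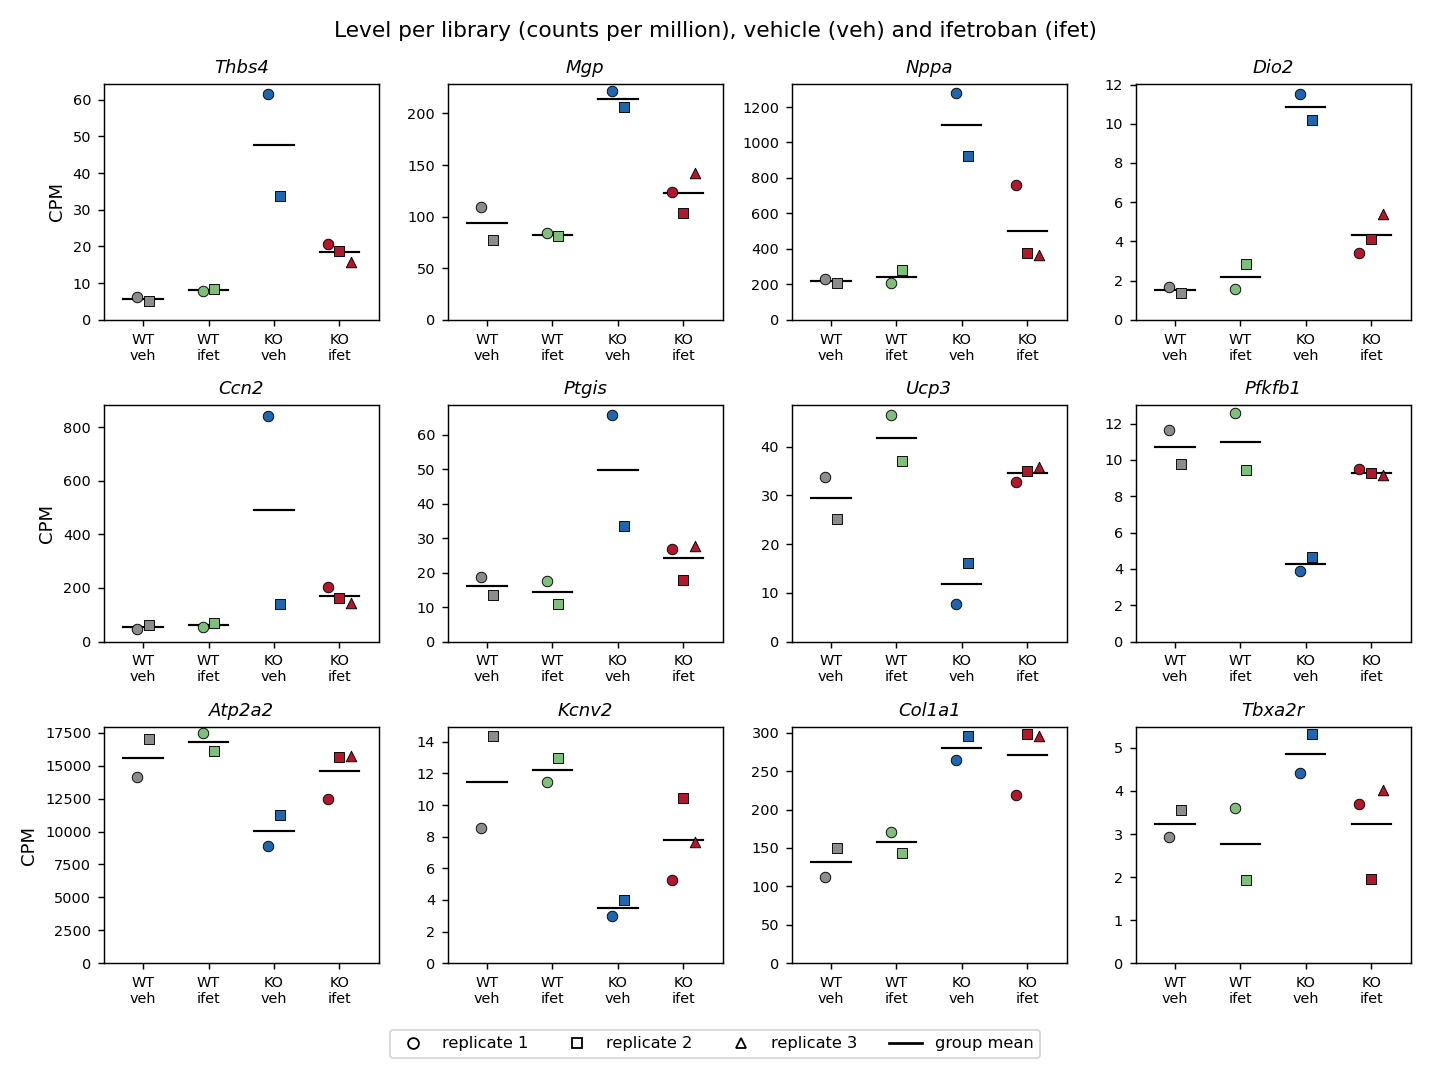
Level in CPM of 12 genes in each of the 9 libraries by group, with symbols for replicates, a line for the group mean and axes from 0. Thbs4, Mgp, Nppa, Dio2, Ptgis and Tbxa2r are lower in each KO ifetroban library than in either KO vehicle library, Ucp3, Pfkfb1, Atp2a2 and Kcnv2 higher, Col1a1 overlaps, and Ccn2 differs through 1 vehicle library at 842 CPM.

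The natriuretic peptide and hypertrophy genes, which rise in the strained ventricle, were lower with drug in part through the same library. Of 22 tested members 18 were negative (median -0.64), and 0 passed the test. Lower without overlap were 3 (13.6%, beside 7.58% of all genes), and 1 was higher (4.55%, beside 8.38%). Without KO vehicle replicate 1 the median was 0.09. Nppa, the atrial natriuretic peptide gene that the diseased ventricle switches on, was at 1278 and 923 CPM with vehicle and at 759.5, 379 and 363 CPM with ifetroban (log2 difference -1.14 ± 0.313). Its WT level was 208 to 279 CPM, below all KO libraries, and KO ifetroban replicate 1 lay nearer to the vehicle libraries than the other 2 did. Nppb, its ventricular relative, was at 2081 and 531 CPM against 670, 519 and 372 CPM, so the groups overlapped. Ankrd1, a stretch-responsive nuclear and sarcomere protein gene, was at 6194 and 2865 CPM against 2911, 2331 and 2226 CPM. Acta1, skeletal actin of the fetal programme, was at 1475 and 1353 CPM against 600.5, 198 and 812 CPM (-1.40 ± 0.597). WT libraries had 313 to 1361 CPM of Acta1, so WT vehicle replicate 1 lay above KO vehicle replicate 2. KO ifetroban replicate 2 lay below all WT libraries. Uchl1, a deubiquitinase of nerve and stressed muscle, was at 20.9 and 17.8 CPM against 13.8, 8.77 and 10.4 CPM. The log2 differences were -0.53 for Nppa and -0.49 for Uchl1 with KO ifetroban replicate 1 as the only drug library. Those of Nppb and Ankrd1 were -0.03 and -0.20 without KO vehicle replicate 1.

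The myosin heavy chain genes gave no clear shift. Myh7, the slow fetal form, was at 184 and 715 CPM with vehicle and at 207, 295 and 371 CPM with ifetroban (-0.63 ± 0.465, adjusted p = 0.697). Myh6, the adult fast form, was at 11236 and 14197 CPM against 13394, 19915 and 22415 CPM (0.55 ± 0.252). In both the groups overlapped. Myocd, a coactivator of the muscle programme, was at 21.6 and 37.8 CPM against 38.8, 68.4 and 65.0 CPM (0.95 ± 0.308), without overlap and with WT at 43.2 to 63.5 CPM. The log2 differences were 0.08 for Myh6 and 0.39 for Myocd with KO ifetroban replicate 1 as the only drug library. Dio2, which encodes the enzyme that activates thyroid hormone inside cells, was at 11.5 and 10.2 CPM with vehicle and at 3.41, 4.14 and 5.39 CPM with ifetroban (-1.33 ± 0.288). WT libraries had 1.39 to 2.85 CPM of Dio2, and its log2 difference was between -1.67 and -1.10 over all alternative analyses.

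The genes of the drug's own pathway were described next. Prostanoids are lipid signals made from arachidonic acid by cyclooxygenases and then by a synthase for each product. Of 22 tested prostanoid genes 16 were negative (median -0.26), 5 (22.7%, beside 7.58% of all genes) were lower without overlap, 0 were higher without overlap and 0 passed the test. The median was -0.10 without KO vehicle replicate 1 and -0.14 with KO ifetroban replicate 1 as the only drug library. Tbxa2r, the target of ifetroban, was at 4.42 and 5.32 CPM with vehicle and at 3.69, 1.96 and 4.03 CPM with ifetroban (log2 difference -0.60 ± 0.361). The groups did not overlap, but WT libraries ran from 1.94 to 3.61 CPM, and the drug values spread as widely as those. Tbxas1, the thromboxane synthase, was at 6.75 and 3.73 CPM against 5.05, 3.53 and 4.54 CPM (-0.26 ± 0.333, adjusted p = 0.789). Ptgis, which makes prostacyclin, the opponent of thromboxane in vessels, was at 65.9 and 33.6 CPM against 26.7, 17.98 and 27.8 CPM (-1.04 ± 0.321), with WT at 10.97 to 18.8 CPM. Its log2 difference was -0.48 without KO vehicle replicate 1. For Tbxa2r the difference was -0.40 with KO ifetroban replicate 1 as the only drug library. Ptgir, the prostacyclin receptor, was at 11.4 and 7.39 CPM against 5.24, 7.58 and 7.52 CPM, groups that overlapped.

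Upstream, Ptgs1, the constitutive cyclooxygenase, was at 5.49 and 7.505 CPM against 5.89, 7.58 and 8.11 CPM (0.15 ± 0.236, adjusted p = 0.838). Ptgs2, the inducible cyclooxygenase, was at 23.9 CPM in KO vehicle replicate 1 only, with 2.502 CPM in replicate 2 and 4.91, 2.18 and 1.63 CPM with ifetroban. Ptgds, for prostaglandin D synthase, was at 885 and 591 CPM against 583, 417 and 426 CPM (-0.64 ± 0.268), and its difference in WT was -0.78. In KO it was -0.32 without KO vehicle replicate 1. Slco2a1, a prostaglandin transporter, was at 14.8 and 4.21 CPM against 4.72, 4.26 and 5.58 CPM. The 28 partners of thromboxane receptor signalling (such as G proteins, phospholipases and kinases) had a median of 0.12, with 18 positive. Without overlap 0 were higher (beside 8.38% of all genes) and 1 was lower (3.57%, beside 7.58%). The median of the 28 was -0.09 with KO ifetroban replicate 1 as the only drug library.

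Genes of fatty acid use were mostly higher in the drug libraries. Of 40 tested genes of fatty acid uptake and oxidation, the main fuel route of the adult heart, 29 were positive (median 0.10), 10 (25%) were higher without overlap beside 8.38% of all genes, 0 were lower without overlap and 0 passed the test. The median was 0.10 without KO vehicle replicate 1 as well and 0.16 with KO ifetroban replicate 1 as the only drug library. After Ucp3, Slc27a1, a fatty acid transport protein, was at 109 and 120 CPM with vehicle and at 139, 178 and 145 CPM with ifetroban (0.42 ± 0.168). Ppargc1b, a coactivator of mitochondrial genes, was at 18.2 and 21.1 CPM against 25.7, 39.4 and 27.5 CPM (0.65 ± 0.242). Ppara, the receptor that drives fatty acid oxidation, was at 9.17 and 21.8 CPM against 18.1, 47.4 and 54.3 CPM, so KO ifetroban replicate 1 lay within the vehicle range. Cpt1a, the carrier step into mitochondria, was at 29.5 and 42.1 CPM against 42.4, 56.1 and 64.2 CPM, and Cd36, the main fatty acid carrier, at 1519 and 1405 CPM against 1661, 1928 and 1616 CPM; both were chosen after their values were seen. Of 31 glycolysis and glucose genes 14 were positive (median -0.08). Without overlap 4 were higher (12.9%, beside 8.38% of all genes) and 2 lower (6.45%, beside 7.58%). Gys1, muscle glycogen synthase, was at 130 and 136 CPM against 144, 166 and 175 CPM. The log2 differences were 0.28 for Slc27a1, 0.39 for Ppargc1b, 0.22 for Ppara, 0.25 for Cpt1a and 0.12 for Gys1 with KO ifetroban replicate 1 as the only drug library.

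The respiratory chain did not follow the fatty acid genes. Of 42 nuclear genes of oxidative phosphorylation 38 were negative (median -0.22). Without overlap 1 was higher (2.38%, beside 8.38% of all genes) and 0 were lower (beside 7.58%). The 42 transcripts are short. The median was -0.05 with length offsets and 0.12 with a term for the length trend. For the fatty acid genes those values were 0.16 and 0.18. In WT the median drug difference of the 42 was -0.31. With KO ifetroban replicate 1 as the only drug library their median in KO was 0.10. All 40 ribosomal protein genes, also short, were negative (median -0.49), and in that same comparison of 3 libraries the median was -0.12.

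Ion channel and calcium genes were mostly higher in the drug libraries. Of 33 tested calcium handling genes 24 were positive (median 0.21), and 0 passed the test. Without overlap 9 were higher (27.3%, beside 8.38% of all genes) and 1 lower (3.03%, beside 7.58%). Of 29 potassium, sodium and pacemaker channel genes 22 were positive (median 0.40). Higher without overlap were 7 (24.1%, beside 8.38%), and 2 (6.9%, beside 7.58%) were lower. Without KO vehicle replicate 1 the medians were 0.07 and 0.17, and with KO ifetroban replicate 1 as the only drug library they were 0.13 and 0.22. Atp2a2, the pump that refills the sarcoplasmic reticulum with calcium, was at 8874 and 11266 CPM with vehicle and at 12497, 15670 and 15733 CPM with ifetroban (log2 difference 0.54 ± 0.18). WT libraries had 14141 to 17519 CPM of Atp2a2, so 2 of the drug libraries lay within the WT range. Ryr2, the calcium release channel, was at 880.5 and 1254 CPM against 1206, 2560 and 2365 CPM, and its groups overlapped. Cacnb2, a subunit of the L-type calcium channel, was at 31.4 and 51.7 CPM against 53.7, 80.04 and 68.5 CPM (0.70 ± 0.234), and Cacna1g, a T-type channel, at 4.42 and 8.18 CPM against 8.46, 17.1 and 10.1 CPM. The log2 differences were 0.31 for Atp2a2, 0.18 for Ryr2, 0.37 for Cacnb2 and 0.42 for Cacna1g with KO ifetroban replicate 1 as the only drug library.

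Among the membrane channels, Kcnv2, a modifier subunit of voltage-gated potassium channels, was at 2.98 and 3.97 CPM with vehicle and at 5.28, 10.4 and 7.68 CPM with ifetroban (1.17 ± 0.335), beside 8.52 to 14.4 CPM in WT. Hcn4, the pacemaker channel, was at 3.95 and 6.27 CPM against 7.81, 13.4 and 8.80 CPM (0.97 ± 0.294). Kcnh2, which carries a repolarising current, was at 39.3 and 80.01 CPM against 81.8, 97.6 and 104 CPM, with the second vehicle library just under the lowest drug library. Kcnd3, a transient outward channel, was at 7.82 and 10.6 CPM against 10.1, 20.0 and 16.1 CPM. In the adrenergic, angiotensin and endothelin list 18 of 26 genes were positive (median 0.22), with 4 (15.4%, beside 8.38% of all genes) higher and 3 (11.5%, beside 7.58%) lower without overlap. Its median was 0.03 without KO vehicle replicate 1 and -0.04 with KO ifetroban replicate 1 as the only drug library. Adra1b, an alpha adrenergic receptor, was at 17.3 and 23.3 CPM against 40.1, 49.6 and 26.6 CPM (0.93 ± 0.26). Edn3, an endothelin ligand, was at 4.19 and 6.63 CPM against 2.48, 1.90 and 3.30 CPM (-1.08 ± 0.392). Corin, the protease that activates the atrial peptide, was at 126 and 177 CPM against 172, 276 and 251 CPM. With KO ifetroban replicate 1 as the only drug library the log2 differences were 0.60 for Kcnv2, 0.61 for Hcn4, 0.13 for Kcnd3 and 0.18 for Corin, and without KO vehicle replicate 1 that of Kcnh2 was 0.24.

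**Figure D3:**
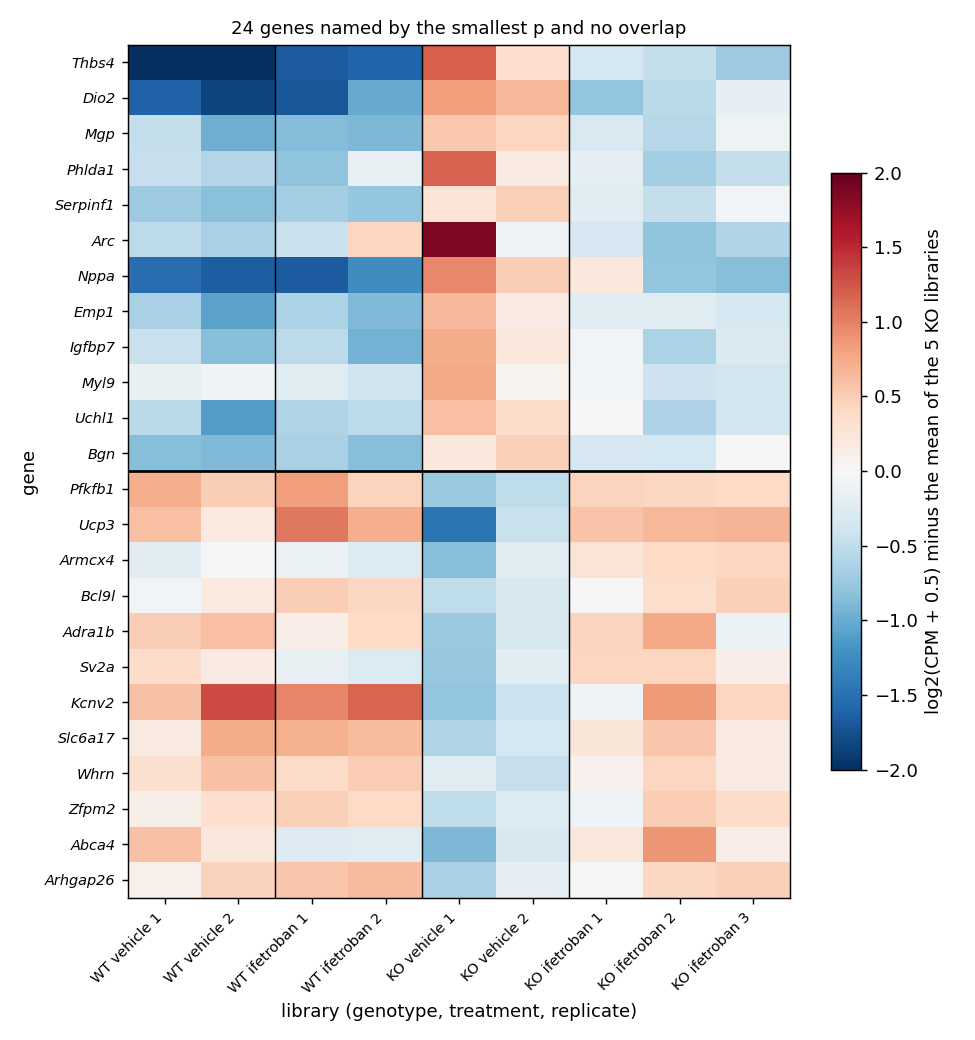
Rows are the 24 genes with the smallest p whose KO groups did not overlap and columns are the 9 libraries; colour is log2(CPM + 0.5) minus the mean of the 5 KO libraries, with colours ending at 2 on either side. The groups separate because the genes were chosen for it; KO vehicle replicate 1 is often the most extreme library, as for Arc, Ucp3 and Phlda1.

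The other genes of the 24 were of mixed roles. Phlda1, a growth-factor-induced gene, was at 127 and 63.3 CPM with vehicle and at 48.7, 34.1 and 40.0 CPM with ifetroban (-1.22 ± 0.297), and Emp1, a membrane protein gene, at 154 and 110 CPM against 84.7, 83.0 and 76.7 CPM. Arc, an activity-regulated gene, was at 15.7 and 3.61 CPM against 2.99, 2.02 and 2.40 CPM, so most of its difference lay in 1 vehicle library. Without that library the log2 differences were -0.63 for Phlda1 and -0.56 for Arc. On the other side, Zfpm2, a partner of GATA factors in heart development, was at 11.9 and 14.1 CPM against 16.2, 24.5 and 22.3 CPM (0.70 ± 0.204, and 0.32 with KO ifetroban replicate 1 as the only drug library). Bcl9l, a coactivator in Wnt signalling, was at 24.1 and 27.8 CPM against 34.5, 44.5 and 48.1 CPM. Armcx4 was at 4.28 and 6.87 CPM against 9.77, 10.8 and 11.1 CPM, above its WT range of 6.66 to 7.92 CPM. The remaining higher genes were Sv2a, Slc6a17, Whrn, Abca4 and Arhgap26, with log2 differences of 0.89, 0.88, 0.60, 1.25 and 0.72. All 24 kept their sign in every alternative analysis that tested them. They were chosen for no overlap between the KO groups, so leaving out libraries could hardly change a sign.

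Immediate early, cytokine and acute-phase genes were high in 1 KO vehicle library. Of 33 tested immediate early genes 32 were negative (median -0.89), but 1 was lower without overlap (3.03%, beside 7.58% of all genes). These genes were also high in 1 WT vehicle library. They summed to 2780 CPM in WT vehicle replicate 1 and to 958 to 1214 CPM in the other WT libraries. Their median drug difference in WT was -0.72. Without KO vehicle replicate 1 the median in KO was 0.35. Of 42 cytokine genes and receptors 36 were negative (median -0.75, and 0.62 without that library). For the genes of the IL-6 family and the acute phase the median was -0.9991 with it and 0.49 without it. Il6 itself was at 17.5 CPM in KO vehicle replicate 1 and 0.159 CPM in replicate 2, against 1.73, 0.153 and 0.0388 CPM with ifetroban. Lif, a cytokine of the same family, was at 19.2 and 0.715 CPM against 1.17, 1.56 and 0.931 CPM. Atf3, a stress-induced transcription factor gene, was at 126 and 5.996 CPM against 14.3, 11.04 and 4.58 CPM, and Myc at 37.5 and 4.09 CPM against 8.98, 6.35 and 3.14 CPM. Cxcl14, a chemokine of stromal cells, was at 100.4 and 33.0 CPM against 30.5, 27.1 and 34.5 CPM, and its log2 difference was -1.12 with that library and -0.10 without it. In each of these the second vehicle library lay within or near the drug range.

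Immune cell lists did not shift in a single direction. All 10 tested B cell markers were positive (median 0.55). All 8 neutrophil markers and all 6 mast cell markers were negative, with medians of -0.30 each. Without KO vehicle replicate 1 those medians were 0.40, 0.46 and -0.21. The lists for T and NK cells and for MHC class II and dendritic cells were of mixed sign. Macrophage and monocyte markers summed to 1014 and 678 CPM with vehicle and to 808, 740 and 771 CPM with ifetroban. Of 26 markers 10 were positive (median -0.13, and 0.17 without KO vehicle replicate 1). Lgals3, galectin-3 of macrophages, was at 34.1 and 10.2 CPM against 27.9, 17.1 and 15.2 CPM (-0.14 ± 0.466, adjusted p = 0.926). Gpnmb, a lysosomal glycoprotein gene of lipid-laden macrophages, was at 2.56 and 4.09 CPM against 4.07, 9.23 and 7.14 CPM (1.04 ± 0.374, and 0.29 with KO ifetroban replicate 1 as the only drug library). Of 18 complement genes 13 were negative (median -0.26) and 4 (22.2%, beside 7.58% of all genes) were lower without overlap. Serping1, the C1 inhibitor, was at 158 and 175 CPM against 108, 112 and 153 CPM, and C1qb, a recognition subunit made by macrophages, at 88.3 and 74.0 CPM against 64.6, 56.2 and 61.2 CPM.

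**Figure D4:**
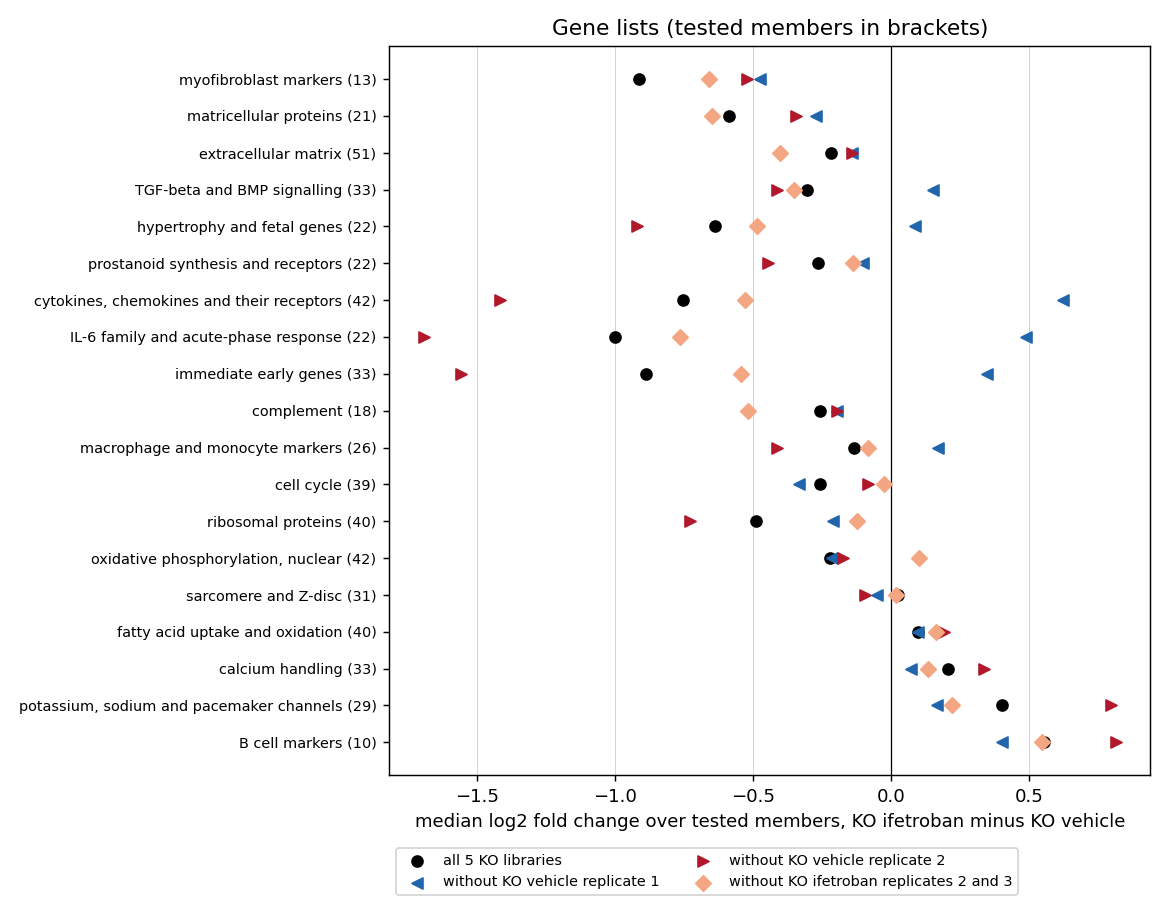
Median log2 fold change of KO ifetroban over KO vehicle for 19 gene lists, with the number of tested members in brackets. Black points use all 5 KO libraries. The cytokine, IL-6, immediate early, TGF-beta, hypertrophy, macrophage and sarcomere lists cross 0 without KO vehicle replicate 1 (blue). The myofibroblast, matricellular, matrix, prostanoid, complement, cell cycle and ribosomal lists stay below 0 in all 4 settings drawn. The fatty acid, calcium, channel and B cell lists stay above 0.

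In WT ventricle ifetroban was compared with vehicle in 2 libraries against 2. The edgeR test called 0 genes in either direction, with 48 higher (0.315%) and 144 lower (0.944%) at an unadjusted p under 0.05, and DESeq2 also called 0. Thbs4 had a log2 difference of 0.53 ± 0.285 in WT, Ucp3 one of 0.50 and Pfkfb1 one of 0.04. Frzb, which encodes a secreted Wnt antagonist, had the smallest p in WT, at 3.64 and 3.55 CPM with vehicle and at 7.94 and 6.10 CPM with ifetroban. In KO the order was the opposite, with 17.1 and 13.9 CPM against 9.96, 8.62 and 11.7 CPM.

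Whether the drug effect differed between the genotypes was tested as an interaction. The edgeR test called 0 genes (lowest adjusted p = 0.9998), with 113 more positive in KO (0.740%) and 98 more negative (0.642%) at an unadjusted p under 0.05. DESeq2 also called 0, with a lowest adjusted p of 0.0687, for Thbs4. Among properly named genes whose log2 CPM averaged 1 or more, the negative interactions with the smallest p, given as log2 differences of differences, were -1.90 for Thbs4, -1.58 for Frzb, -1.996 for Ltbp2 and -1.85 for Dio2. The positive ones with the smallest p among the same genes were 1.41 for Sv2a, 2.03 for Abca4, 1.09 for Pfkfb1 and 1.42 for Lgals4. Lgals4, a galectin gene, was at 12.2 and 13.2 CPM with vehicle and at 21.9, 27.3 and 16.1 CPM with ifetroban in KO, and at 39.2 and 24.7 CPM against 18.1 and 22.8 CPM in WT. Without the filter on low counts edgeR called 16 interactions more positive and 57 more negative in KO. Among them were those of Thbs4, Frzb, Ltbp2, Dio2 and Lgals4. So were Kap (-9.38), Slc34a1 (-10.1) and Mep1a (-10.9), chosen after their values were seen. Much of the first of these lay in WT, where Kap differed by 5.88 under this setting, beside -3.51 in KO. Slc34a1 differed by 7.54 in WT and by -2.54 in KO. For Mep1a the KO difference was -4.73. Why these transcripts differed was not tested. Between drug and vehicle in KO, 382 of the 428 genes this setting called had been tested and not called with the filter. Its calls are therefore no separate support for the named genes.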

How the data were processed

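Left ventricle polyA RNA was sequenced in 9 libraries, grouped by the sample titles. The authors deposited raw read counts per gene, 1 file per library, and the submitters' processing notes name STAR 2.5.2b, HTSeq and GRCm38; the sources used here do not give the annotation release. Reverse-strand counts were used, which held 14.5 times the forward ones, and 4 rows that name no gene (26.6% to 31.9% of reads) were dropped. Gene reads numbered 21299748 to 31394548 per library, and genes near the testing limit rest on few of them. Symbols, coordinates (GRCm38, counted from 1) and lengths came from GENCODE M21, which matched 49412 of 49671 identifiers.

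edgeR 4.0.16 in R 4.3.3 tested genes by its quasi-likelihood F test, two-sided, with TMM scaling, filterByExpr and 1 coefficient per group over all 9 libraries, so that KO and WT share the estimate of spread. Benjamini-Hochberg adjustment ran over 15261 genes, with a threshold of 0.05. Fold changes are log2 with a prior count of 0.125, and their standard errors, calculated back from F, are approximate. Alternatives were DESeq2 1.42.0, voom of limma 3.58.1 with quality weights, other scalings and filters, the KO libraries alone, unstranded counts, a replicate block, 2 corrections for the length trend and left-out libraries. The fit was also run on simulated data, but the outcome is not given here and bears on no result. The chi-square of counts per degree of freedom ran from 13.8 (WT ifetroban) to 84.1 (KO vehicle) over the 6 pairs within groups. A value of 1 would mean counting noise alone, which separate samples at this depth rarely meet.

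The members and lists were chosen with earlier results of these data known. Named genes are up to 12 per direction with the smallest p, a mean of 1 or more on the log2 CPM scale and no overlap, 25 fixed genes, up to 4 members of smallest p per described list, and up to 4 interactions per direction. Genes outside this rule are marked where they appear. A list is given by its counts and median, with no test of its own.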

Additional observations from a re-analysis of the deposited data

How the results depend on the processing

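The counts of genes depended on the tool, the filter and 1 library. Between drug and vehicle in KO, edgeR called 0 genes higher and 0 lower, DESeq2 called 2 and 1, and edgeR with all genes of at least 1 count called 168 and 260. That last setting also called 16 interactions more positive and 57 more negative in KO, and 34 genes in WT. Leaving out 1 library at a time, or both first replicates of the KO groups, the calls in KO ranged from 0 to 145 higher and from 0 to 304 lower, all of them without KO vehicle replicate 2; for the interaction and for WT they stayed at 0. The other scalings, voom, the stricter filter, the 5 KO libraries alone, the unstranded counts, both length corrections and the added setting without KO ifetroban replicates 2 and 3, chosen after seeing the data, gave 0 calls.

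Replicate numbers are shared between groups in the titles, and nothing says that they mark a litter or day. In KO the deviations of vehicle and ifetroban replicate 1 correlated at 0.35 and those of replicate 2 at 0.04, while vehicle replicate 2 correlated at 0.39 with ifetroban replicate 3, which has no partner. With the replicate block the test called 0 genes higher and 0 lower in KO, as without it.

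Of 90 genes followed through 22 alternatives, 72 kept their sign in all of them. So did all 24 chosen by the smallest p and no overlap, a choice that nearly fixed their sign when libraries were left out. With 1 library, or both first KO replicates, left out, the lowest and highest log2 differences were -2.31 and 0.28 for Ccn2, -0.13 and 0.081 for Col1a1, -0.17 and 0.14 for Col3a1, -2.75 and 2.30 for Timp1, -0.63 and 3.64 for Spp1, -1.30 and 0.67 for Myh7, -3.05 and 0.20 for Ptgs2, -1.60 and 0.22 for Slco2a1, -0.62 and 0.22 for Tbxas1, -0.059 and 0.40 for Ptgs1, -0.73 and 0.030 for Ptgir, -0.76 and 0.96 for Lgals3, -3.95 and 0.81 for Lif, -4.88 and 1.90 for Il6, -3.66 and 0.73 for Atf3, -2.60 and 0.58 for Myc, and -1.60 and 0.19 for Lox. Voom turned Col1a1 to 0.029 and Col3a1 to 0.053, and the open filter turned Col3a1 to 0.0050. The term for the length trend turned Ptgs1 to -0.049, Sgcd to -0.16 and Lgals3 to 0.18; length offsets turned Lgals3 to 0.013 and the replicate block to 0.17. Without KO ifetroban replicates 2 and 3, values lay below those ranges for Col1a1 (-0.36), Col3a1 (-0.35), Ptgir (-0.84) and Ptgs1 (-0.14), and Sgcd was at -0.0033 and Lgals3 at 0.34. Of 54 lists, 24 medians changed sign without KO vehicle replicate 1, 2 without replicate 2, 13 with the length term and 16 without KO ifetroban replicates 2 and 3. The cause was not tested. With 2 vehicle libraries the spread within that group rests on 1 difference.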

Other observations

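All 10 tested B cell markers were positive, with a median log2 difference of 0.55 between KO ifetroban and KO vehicle, and 4 (40%, beside 8.38% of all genes) were higher without overlap while edgeR called 0. Their levels were low. Fcer2a, a receptor of mature B cells, was at 0.186 and 0.119 CPM with vehicle and at 0.514, 0.429 and 0.465 CPM with ifetroban (1.60 ± 0.552), and WT libraries had 0.357 to 0.618 CPM. Pax5, the B cell identity factor, was at 0.512 and 0.397 CPM against 1.08, 1.17 and 0.814 CPM, and Cd79a, a part of the B cell receptor, at 0.279 and 0.715 CPM against 0.935, 1.38 and 1.01 CPM. Without KO vehicle replicate 1 the median was 0.40.

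Of 39 tested cell cycle genes 10 (25.6%, beside 7.58% of all genes) were lower and 2 (5.13%, beside 8.38%) higher without overlap. The median was -0.26, and edgeR called 0. Ccna2, a cyclin of S phase and mitosis, was at 1.81 and 2.98 CPM with vehicle and at 1.40, 0.982 and 1.44 CPM with ifetroban (-0.92 ± 0.4). Cdk1, its kinase, was at 1.12 and 1.55 CPM against 0.888, 0.491 and 0.659 CPM, and Birc5, for survivin, at 0.791 and 0.874 CPM against 0.608, 0.399 and 0.349 CPM; both were chosen after their values were seen, and the edgeR adjusted p was 0.688 for Cdk1 and 0.691 for Birc5. With KO ifetroban replicate 1 as the only drug library the list's median was -0.03. Cenpf, a centromere gene, had the opposite order, at 5.40 and 24.3 CPM against 28.0, 51.3 and 28.6 CPM.

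Genes of the dystrophin-glycoprotein complex had a median of 0.09, with 17 of 27 positive and 1 lower without overlap (3.7%, over all genes 7.58%). Dmd, for dystrophin, was at 74.9 and 114 CPM with vehicle and at 101, 188 and 186 CPM with ifetroban (0.75 ± 0.299), groups that overlapped, and its log2 difference was 0.10 with KO ifetroban replicate 1 as the only drug library.

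Some libraries held transcripts of other tissues. Alb, the albumin gene of liver, was at 59.7 CPM in KO vehicle replicate 1 and 0.0397 CPM in replicate 2, with 4.58, 0.337 and 0.271 CPM under ifetroban; 15 liver genes summed to 117 CPM in that library and to between 2.77 and 11.6 CPM in the other 8. Prg4, a lubricant of joints and serous surfaces, was at 338 CPM there, against 24.7 CPM in the second vehicle library. Ryr1, the skeletal calcium release channel, was at 21.3 CPM in KO ifetroban replicate 2 and under 3 CPM in every other library, while the skeletal genes Tnnt3 and Atp2a1 were at 6.13 and 8.42 CPM in KO ifetroban replicate 3. The part of these transcripts in the drug comparison was not tested.

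Clock genes split every group of libraries. Arntl, which peaks opposite to Dbp over the day, was at 21.4 CPM in KO vehicle replicate 1 and 3.14 CPM in replicate 2, and Dbp at 21.6 and 195 CPM. Under ifetroban Arntl was at 11.8, 23.8 and 3.84 CPM and Dbp at 92.2, 28.8 and 141 CPM. In WT Arntl was at 2.52 and 19.3 CPM with vehicle and at 2.38 and 18.5 CPM with ifetroban, with Dbp at 229, 46.9, 190 and 28.3 CPM. Between the KO groups the edgeR adjusted p was 0.975 for Arntl and 0.926 for Dbp. The choice of these 2 clock genes followed a look at their values, and their part in the drug comparison was not tested.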
